A study of Mus musculus with 9 samples.

Results

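The mitochondrial ribosomal proteins were examined as a family across all 9 RNA sequencing libraries of the series. The members were the rows of the gene table whose names are Mrpl or Mrps followed by a number and, in some, a letter from a to c. This rule uses names only and found 78 of the 25655 genes, 49 named Mrpl for the large subunit and 29 named Mrps for the small subunit. The 9 libraries fell into 3 groups of 3. MyoD-tdTomato low cells, like MyoD-tdTomato high cells, were muscle stem cells (MuSCs) isolated with integrin α7 magnetic beads from hindlimb muscles of 10–16-week-old MyoD KI/+ mice on a C57BL/6 background, in which tdTomato follows the endogenous MyoD coding sequence after a P2A peptide. After 5 days of culture in growth medium with 20% serum they were separated by FACS on tdTomato fluorescence, and are called tdTomato-low and tdTomato-high cells here. QSCs were MuSCs taken directly, with no culture, from leg muscles of Pax7-YFP mice (Pax7 YFP/YFP), which were males aged 15–16 weeks. Culture, reporter allele, isolation and age range therefore all differ between both tdTomato groups and QSCs and cannot be told apart in these comparisons. Sex may differ too, since the study used MyoD KI/+ mice of both sexes unless stated and gives none for these libraries. In contrast, tdTomato-low and tdTomato-high cells differ, as far as the labels say, by the sort gate. Libraries within a group are described as technical replicates, so p-values here may measure only the spread between libraries.

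Mitochondria keep ribosomes of their own, which translate the few membrane proteins of the respiratory chain that mitochondrial DNA encodes. Their ribosomal RNAs are mitochondrial, but every ribosomal protein is encoded in the nucleus, made in the cytosol and imported. Some of these proteins descend from the bacterial ribosome and others are found only in mitochondria. In muscle, mitochondrial translation supplies oxidative phosphorylation, and quiescent MuSCs are known for few mitochondria and a low metabolic rate compared with cycling myoblasts. A ribosome needs its proteins in set proportions, which is the question behind comparing the 2 subunits here.

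The table's coordinates (GRCm39) place the members on 17 chromosomes, with 11 of them on chromosome 11 and 8 on chromosome 17, so no single locus carries the family. Many share a start region with a neighbour. In the GENCODE M21 annotation, 33 of 78 members (42.3%) had the start of a protein-coding gene on the other strand within 1000 bases, against 15.9% of the protein-coding genes tested. Mrps11 and Mrpl46, a small and a large subunit gene, form such a pair, and Mrps12 lies head to head with Sars2, which encodes the mitochondrial seryl-tRNA synthetase. Promoters from 250 bases before to 50 bases after the annotated start (RefSeq, GRCm38.p6) were at hand for 69 of the 78 members. The ETS core CCGGAAG, the letters read by GABP, was found on either strand in 26 of the 69 (37.7%), against 19.8% of the tested genes with a promoter and 9.93% of all genes with a promoter. The NRF1 core CGCATGCG was found in 7 (10.1%), against 4.37% and 2.07%. The YY1 core AAGATGG was found in 13 (18.8%), against 8.44% and 7.28%, and the E-box CACGTG, the letters read by Myc, in 5 (7.25%), against 11.9% and 8.09%. A match to these letters is a description and not a bound site, and no 2 of these motifs overlapped in the promoters shown here.

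Promoters of 5 members show these letters, with matches in capitals and the rest in lower case, 5′ to 3′ on the gene's own strand. Mrpl34 (chr8:71464676-71464975, plus strand), Mrpl43 (chr19:45006393-45006692, minus strand) and Mrpl22 (chr11:58171414-58171713, plus strand) are shown because they were among the members furthest above QSCs. Mrpl52 (chr14:54426659-54426958, plus strand) is shown because it was below QSCs in TMM-scaled counts, and Mrpl12 (chr11:120484387-120484686, plus strand) because it had the highest counts of the family in every cultured library.
Mrpl34: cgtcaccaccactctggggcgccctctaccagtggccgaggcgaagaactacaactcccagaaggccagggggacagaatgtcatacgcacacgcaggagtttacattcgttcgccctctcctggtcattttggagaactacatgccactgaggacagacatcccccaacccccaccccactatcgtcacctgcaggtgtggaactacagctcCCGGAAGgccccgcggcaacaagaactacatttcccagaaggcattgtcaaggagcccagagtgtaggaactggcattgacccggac
Mrpl43: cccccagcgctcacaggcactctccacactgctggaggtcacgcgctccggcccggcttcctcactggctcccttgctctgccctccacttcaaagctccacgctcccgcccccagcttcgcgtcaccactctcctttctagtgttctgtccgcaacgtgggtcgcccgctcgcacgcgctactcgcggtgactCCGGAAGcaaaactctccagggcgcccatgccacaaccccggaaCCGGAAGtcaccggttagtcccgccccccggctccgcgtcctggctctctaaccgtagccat
Mrpl22: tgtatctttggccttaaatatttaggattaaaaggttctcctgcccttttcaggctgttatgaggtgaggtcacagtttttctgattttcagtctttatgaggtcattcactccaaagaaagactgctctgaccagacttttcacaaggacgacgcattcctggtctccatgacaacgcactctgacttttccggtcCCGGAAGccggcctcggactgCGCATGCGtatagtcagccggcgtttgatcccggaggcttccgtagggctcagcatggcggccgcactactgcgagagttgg
Mrpl52: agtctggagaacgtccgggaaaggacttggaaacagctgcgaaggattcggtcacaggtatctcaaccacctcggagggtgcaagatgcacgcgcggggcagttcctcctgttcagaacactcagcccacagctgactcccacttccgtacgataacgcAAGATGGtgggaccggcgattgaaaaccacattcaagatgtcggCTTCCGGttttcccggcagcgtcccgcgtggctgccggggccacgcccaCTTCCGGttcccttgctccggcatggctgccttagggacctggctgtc
Mrpl12: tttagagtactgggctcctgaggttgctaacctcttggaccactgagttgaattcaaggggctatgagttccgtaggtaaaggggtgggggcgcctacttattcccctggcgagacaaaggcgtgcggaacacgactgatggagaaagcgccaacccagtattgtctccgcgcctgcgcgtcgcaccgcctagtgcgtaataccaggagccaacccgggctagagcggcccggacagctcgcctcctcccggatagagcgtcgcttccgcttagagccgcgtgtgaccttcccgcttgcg
The capitals mark the ETS core in Mrpl34, which begins 37 bases before the annotated start, and 2 ETS cores in Mrpl43, 56 and 12 bases before it. In Mrpl22 they mark an ETS core 53 bases and an NRF1 core 32 bases before the start. Mrpl52 carries the YY1 core and, reading CTTCCGG on this strand, 2 ETS cores, and Mrpl12 holds none of the 4 motifs in this window. Among these promoters, picked by the members' values, Mrpl34, Mrpl43, Mrpl22 and Mrpl52 held ETS cores and Mrpl12 did not. Whether these letters bear on the direction of change was not tested. Of the 44 members called above QSCs in both comparisons described next, 38 had a promoter and 16 of these held an ETS core (42.1%), and of the 4 called below QSCs in both, 2 did.

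The libraries held 24471782–25767904 counts in tdTomato-low cells, 24643176–26782872 in tdTomato-high cells and 7514633–18077031 in QSCs, so values are least precise in QSCs. Pax7 was detected in every group (mean 146, 80.5 and 310 CPM in tdTomato-low cells, tdTomato-high cells and QSCs), and Calcr, a quiescence marker, averaged 0.339 CPM in tdTomato-low cells, 0.0986 CPM in tdTomato-high cells and 182 CPM in QSCs. The 8 MuSC markers, these included, summed to 1805–2100, 2623–2766 and 4741–6033 CPM. By the test described below, 0 of 8 were called higher and 4 lower in tdTomato-low cells than in QSCs (22.6% and 26.5% of all tested genes). In tdTomato-high cells 2 were called higher and 4 lower (24.6% and 26.4%). QSCs also carried markers of other muscle-resident cells. The 10 endothelial markers summed to 19.4–27.6 CPM in tdTomato-low cells, 4.46–5.18 CPM in tdTomato-high cells and 331–657 CPM in QSCs, and the 10 fibroblast markers to 995–1622, 800–955 and 3271–3940 CPM. The 9 mature myofibre markers summed to 490–2021, 6405–13410 and 442–1182 CPM. Odorant, vomeronasal and other chemoreceptor genes took 20.4–24.4 CPM (of library totals, with no TMM factor) in tdTomato-low cells, 27.9–29.6 in tdTomato-high cells and 562–3001 in QSCs. Their part in the member values was not tested. The highest was QSCs replicate 2, also the shallowest library, which held Mrpl44 at 0. Dcn and Dpt, defining fibroblast genes, were near 0 in both cultured groups, and Cldn5, an endothelial gene, was at 0 in tdTomato-high cells. The fibroblast list as a whole was not near 0 in culture, as its sums above show. The part of these other cells in the member values was not tested.

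In tdTomato-low cells the family as a whole stood above QSCs. Members took 0.386–0.3996% of all counts in tdTomato-low libraries and 0.352–0.381% in tdTomato-high libraries, against 0.1703–0.1794% in QSCs libraries, with no overlap between the cultured groups and QSCs. Summed TPM, which corrects each gene for length, was 6077–6405 in tdTomato-low cells, 5518–6039 in tdTomato-high cells and 2197–2312 in QSCs. In bulk RNA, more cells expressing a gene and more RNA per cell cannot be told apart.

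Gene by gene, counts were tested with edgeR over the 12614 genes that had no count of 0 in any library, and a gene was called where its adjusted p was below 0.01 with a change beyond 1.5-fold. Of the 78 members 77 could be tested. Between tdTomato-low cells and QSCs, 44 of 77 members were called higher (57.1%, where 22.6% of all tested genes were called higher), 4 were called lower (5.19%, where 26.5% of all were called lower) and 29 were not called. Between tdTomato-high cells and QSCs, 46 were called higher (59.7%, with 24.6% of all genes) and 5 lower (6.49%, with 26.4% of all genes). The 44 and 4 of the tdTomato-low comparison were all called the same way in tdTomato-high cells, though both comparisons use the same QSCs libraries. Mrpl1, Mrps14 and Mrps28 were the members called in tdTomato-high cells only, and their adjusted p in tdTomato-low cells was 0.013, 0.0126 and 0.0144. The median log2 fold change of the members was 0.87 in tdTomato-low cells and 0.96 in tdTomato-high cells relative to QSCs, against −0.07 and −0.02 for all tested genes, and 70 of 77 members had a positive value in each. Every called member had groups that did not overlap, and so did 16 of the 29 not called in tdTomato-low cells (14 above QSCs and 2 below). The share of all tested genes without overlap was not computed, so this count is a description only. Without QSCs replicate 2, the library with the most chemoreceptor counts, 46 members were called higher and 5 lower in tdTomato-low cells, and 48 and 5 in tdTomato-high cells. Of all genes in that fit 24.2% were called higher and 27.7% lower in tdTomato-low cells, and 26.5% and 27.4% in tdTomato-high cells.

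**Figure D1:**
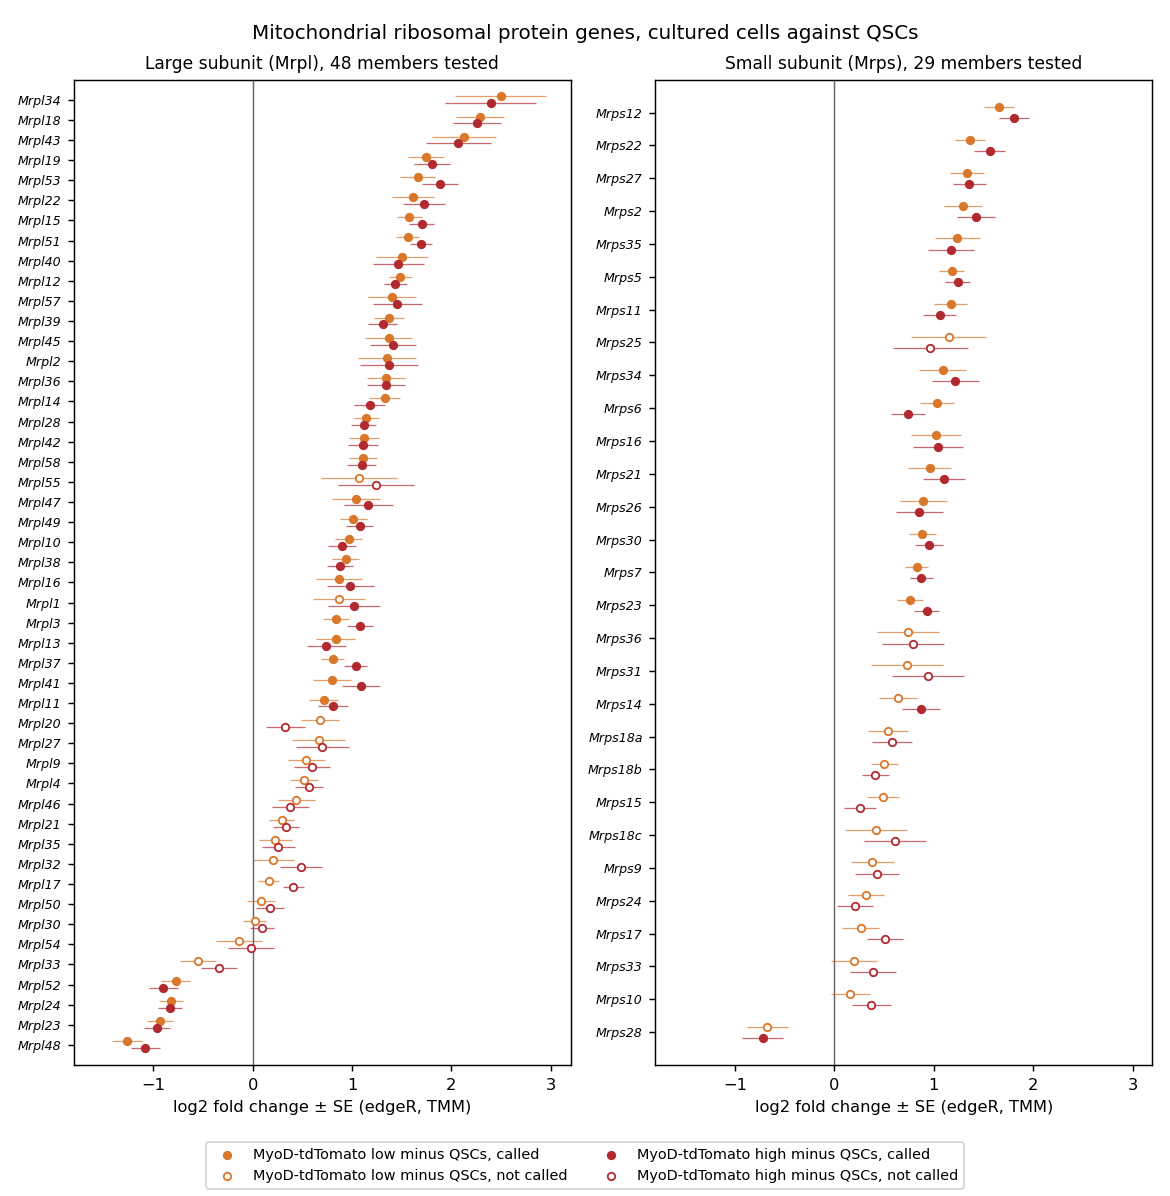
Log2 fold change (x axis, ± SE from edgeR) of each tested member (rows), large subunit on the left and small subunit on the right, for MyoD-tdTomato low minus QSCs (orange) and MyoD-tdTomato high minus QSCs (red). Filled points were called (adjusted p under 0.01 and fold change over 1.5). Values run from −1.26 to 2.50 in MyoD-tdTomato low cells, and the 4 filled points on the left of 0 in both colours are Mrpl52, Mrpl24, Mrpl23 and Mrpl48.

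The 6 largest rises were in Mrpl34, Mrpl18, Mrpl43, Mrpl19, Mrpl53 and Mrps12. Mrpl34 (bL34), a small protein of the bacterial core, had 30.8, 31.3 and 30.4 CPM in tdTomato-low libraries, 26.2, 30.4 and 29.6 in tdTomato-high libraries and 3.37, 11.5 and 2.30 in QSCs libraries. Its log2 fold change was 2.50 ± 0.46 (SE) in tdTomato-low cells and 2.39 in tdTomato-high cells, with adjusted p of 0.000695 and 0.00086 (edgeR). The 3 QSCs libraries differed among themselves several-fold, but the highest of them lay below every cultured library. Without QSCs replicate 2 the log2 fold change of Mrpl34 was 3.42 in tdTomato-low cells and 3.32 in tdTomato-high cells, so this library moved its size by more than 1.5-fold. Mrpl18 (uL18), of the central protuberance at the top of the large subunit, had 63.5, 66.3 and 66.6 CPM in tdTomato-low cells, 63.0, 66.1 and 63.2 in tdTomato-high cells and 7.83, 18.4 and 14.3 in QSCs (log2 fold change 2.29 and 2.26). Its exons overlap those of Tcp1 on the other strand. Mrpl43 (mL43), found only in mitochondria, had 43.5, 40.1 and 41.2 CPM, 38.5, 41.0 and 40.5 CPM and, in QSCs, 10.7, 3.56 and 13.2 CPM (2.13 and 2.07). Its exons overlap those of Twnk, the mitochondrial DNA helicase gene, also on the other strand, and the strand setting of the counting was not given in the sources used here. Mrpl19 (bL19), Mrpl53 (mL53) and Mrps12 had log2 fold changes of 1.75, 1.66 and 1.66 in tdTomato-low cells and 1.80, 1.89 and 1.81 in tdTomato-high cells. Mrps12 (uS12), a decoding centre protein, had 40.7, 33.5 and 32.8 CPM in tdTomato-low cells and 41.7, 39.8 and 37.0 CPM in tdTomato-high cells, against a tight 10.9, 10.5 and 12.1 CPM in QSCs. Its head-to-head partner Sars2 rose likewise, by a log2 fold change of 1.91 in tdTomato-low cells and 1.86 in tdTomato-high cells. Exons of Mrpl19 also overlap Gcfc2 on the other strand. Those of Mrpl53 overlap Gm42688, a predicted protein-coding gene on the same strand, over 695 of their 790 bases. Whether Mrpl53 and Gm42688 share reads was not tested. In all, exons of 33 of the 78 members overlap those of another annotated gene, including Mrpl12, Mrpl47, Mrps11, Mrpl46, Mrps18b, Mrps18c, Mrps24, Mrps30, Mrpl33 and Mrpl44 below. Mrpl22 (uL22), which lines the peptide tunnel and has no such overlap, came next, with 21.3, 22.2 and 21.3 CPM in tdTomato-low cells, 22.8, 24.2 and 22.7 in tdTomato-high cells and 5.19, 8.82 and 7.15 in QSCs (1.61 and 1.72, called higher in both).

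**Figure D2:**
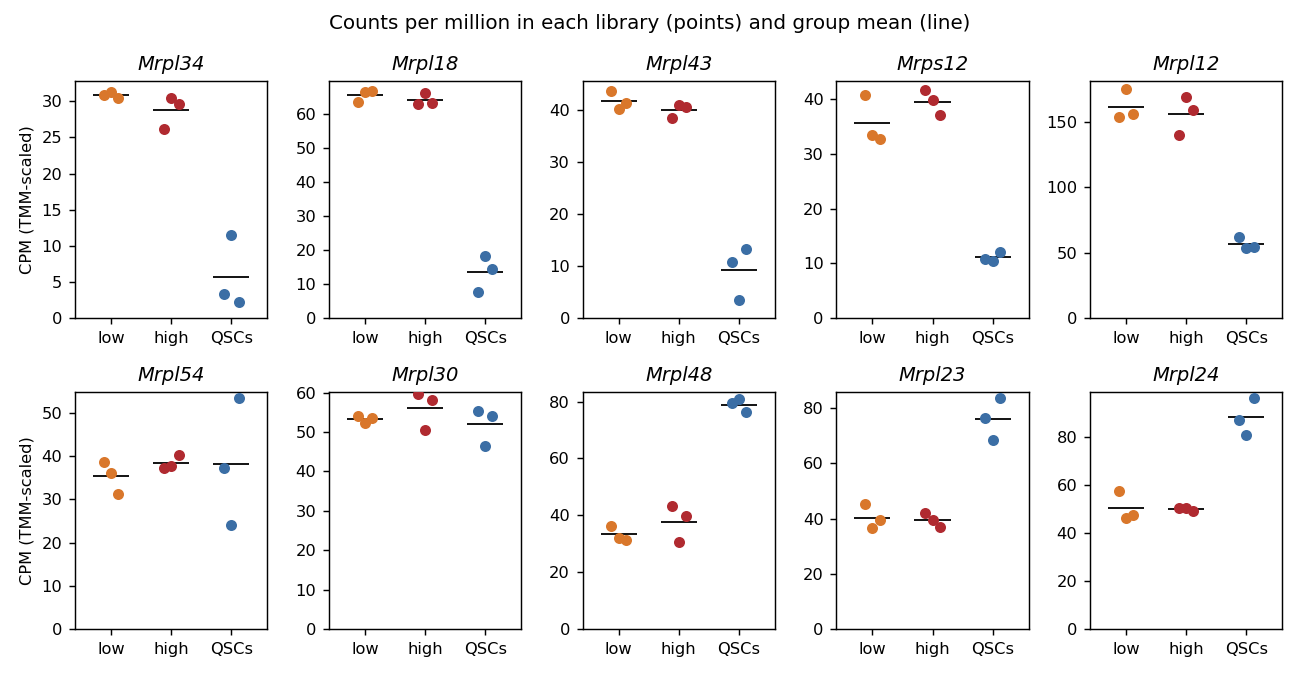
CPM (TMM-scaled, y axis from 0) of 10 members in the 3 libraries of each group, MyoD-tdTomato low (orange), MyoD-tdTomato high (red) and QSCs (blue), with the group mean as a line. Mrpl34, Mrpl18, Mrpl43, Mrps12 and Mrpl12 lie above QSCs in every cultured library, Mrpl54 and Mrpl30 overlap QSCs, and Mrpl48, Mrpl23 and Mrpl24 lie below QSCs in every cultured library.

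By level, the family spanned more than an order of magnitude. By mean TPM over all 9 libraries the 6 highest members were Mrpl52, Mrpl12, Mrpl42, Mrps21, Mrpl54 and Mrpl28 and the 3 lowest Mrpl1, Mrpl19 and Mrpl47. The order differed by group. Mrpl12 led in tdTomato-low cells (320 TPM, Mrpl52 251) and in tdTomato-high cells (282, Mrpl52 211), while in QSCs Mrpl52 led (245) and Mrpl23 came second (119.65). Mrpl12 (bL12) forms the flexible stalk that recruits translation factors and is the member present in several copies per ribosome. It had 292, 354 and 315 TPM in tdTomato-low cells, 245, 315 and 286 in tdTomato-high cells and 73.8, 70.8 and 53.9 in QSCs. Its log2 fold change on the count scale was 1.49 and 1.44 (adjusted p 1.41e-06 and 1.6e-06, edgeR), and it was the member with the most counts in all 6 cultured libraries and in no QSCs library. Mrpl42 (mL42), Mrps21 (bS21) and Mrpl28 (bL28) were called higher too, with log2 fold changes of 1.12, 0.96 and 1.15 in tdTomato-low cells and 1.11, 1.10 and 1.12 in tdTomato-high cells. Mrpl1 (uL1), of the mobile stalk on the opposite side, was lowest in both cultured groups, at 11.5 ± 1.5 TPM in tdTomato-low cells and 11.6 ± 1.3 in tdTomato-high cells, against 3.47 ± 0.93 in QSCs (mean ± SD, n = 3 each), where Mrpl19 was lower still at 3.33. Mrpl47 (uL29) had a log2 fold change of 1.04 and 1.17.

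With TMM scaling a separate set of large subunit genes moved the other way. With library totals 1 and 2 members were called lower in tdTomato-low and tdTomato-high cells (18.2% and 20.3% of all tested genes). On log2(TPM + 1) 0 were called lower in each (12.5% and 14.3% of all tested genes). Mrpl48 (mL48), a protein of the central protuberance found only in mitochondria, had 36.4, 32.1 and 31.3 CPM in tdTomato-low cells, 43.2, 30.4 and 39.7 in tdTomato-high cells and 79.5, 81.0 and 76.5 in QSCs. The log2 fold change was −1.26 ± 0.15 (SE) and −1.08 ± 0.15, with adjusted p of 2.84e-05 and 7.95e-05 (edgeR). Mrpl23 (uL23), which lines the exit of the peptide tunnel, had 45.1, 36.4 and 39.4 CPM in tdTomato-low cells, 42.2, 39.6 and 37.0 in tdTomato-high cells and 76.3, 68.6 and 83.6 in QSCs (−0.93 and −0.96). Mrpl24 (uL24), also at the tunnel exit, had 57.3, 46.0 and 47.6 CPM, 50.4, 50.5 and 49.0 CPM and, in QSCs, 87.0, 80.8 and 96.1 CPM (−0.82 and −0.83). Mrpl52 (mL52) had 51.2, 46.4 and 44.5 CPM, 41.0, 46.5 and 42.8 CPM and, in QSCs, 73.3, 69.3 and 97.6 CPM (−0.77 and −0.90). In each of these 4 genes the lowest QSCs library was above the highest cultured library in TMM-scaled CPM. With TMM scaling, leaving out any of the 9 libraries in turn left all 4 called in both comparisons. Mrpl24, Mrpl48 and Mrpl52 were the most counted members in QSCs replicates 1, 2 and 3, and the 4 genes together made up 15.2–15.6% of all member counts, against 4.65–5.51% in tdTomato-low cells and 4.70–5.07% in tdTomato-high cells. GENCODE M21 names a pseudogene of Mrpl48 and of Mrpl23, and Mrpl48 and Mrpl24 overlap exons of Rab6a and Rrnad1 on the other strand, and whether these genes share reads was not tested. Mrpl52 has neither. Mrps28 (bS1) was the only small subunit gene with a negative log2 fold change, and Mrpl33 (bL33) and Mrpl54 were the other large subunit genes with one, not called. Mrps28 had 20.5, 17.8 and 20.7 CPM in tdTomato-low cells, 18.3, 19.6 and 19.2 in tdTomato-high cells and 35.0, 20.9 and 37.0 in QSCs. Its log2 fold change was −0.68 and −0.72, and its call in tdTomato-high cells (adjusted p 0.00992, edgeR) held without only 1 of the 9 libraries.

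Some members hardly differed at all. Mrpl30 (uL30) had 54.1, 52.4 and 53.7 CPM in tdTomato-low cells, 59.6, 50.6 and 58.1 in tdTomato-high cells and 55.3, 46.5 and 54.2 in QSCs, with log2 fold changes of 0.02 ± 0.12 (SE) and 0.09. Mrpl54 (mL54) had 35.4 ± 3.78, 38.5 ± 1.66 and, in QSCs, 38.3 ± 14.7 CPM (mean ± SD, n = 3 each; log2 fold change −0.14 and −0.01), and Mrpl50 (mL50) was at 0.08 and 0.18. Mrpl17, Mrps10 and Mrps33 were at 0.16, 0.16 and 0.20 in tdTomato-low cells. Mrps33 had 37.2, 34.3 and 35.1 CPM there against 23.7, 23.2 and 44.9 in QSCs, and without QSCs replicate 3 it was called higher (0.59, adjusted p 0.00376 by edgeR). Mrps24, Mrps15 and Mrpl35 were at 0.21, 0.26 and 0.26 in tdTomato-high cells. Within a group the libraries agreed closely in culture and less so in QSCs. The median coefficient of variation of CPM over the 77 tested members was 5.84% in tdTomato-low cells, 4.77% in tdTomato-high cells and 25.1% in QSCs, where among those tested it reached 88.0% for Mrpl34. The untested member, Mrpl44 (mL44), had 23.7, 24.2 and 23.9 CPM in tdTomato-low cells, 26.5, 26.1 and 25.9 in tdTomato-high cells and 5.19, 0 and 11.1 in QSCs.

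The names hide some biology. Mrps18a, Mrps18b and Mrps18c are relatives of 1 bacterial protein, and in the mammalian ribosome Mrps18a (mL66) and Mrps30 (mL65) sit in the large subunit despite their names. Mrps18a, Mrps18b (mS40) and Mrps18c (bS18) had log2 fold changes of 0.54, 0.50 and 0.42 in tdTomato-low cells and of 0.58, 0.41 and 0.61 in tdTomato-high cells, and none was called. Mrps30 was called higher in both (0.89 and 0.96). Mrps36, which is now known as a component of the 2-oxoglutarate dehydrogenase complex and not of the ribosome, had 29.9, 30.8 and 29.1 CPM in tdTomato-low cells, 29.3, 30.3 and 33.2 in tdTomato-high cells and 8.30, 20.1 and 25.0 in QSCs (0.74 and 0.79, not called), and has 3 named pseudogenes. The paired genes Mrps11 (uS11) and Mrpl46 (mL46) did not give the same call from their shared start. Mrps11 was at 1.17 and 1.06 and called higher, whereas Mrpl46 was at 0.44 and 0.38 and not called.

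By ancestry, most of the proteins found only in mitochondria and many of those of bacterial descent were called higher. Of 30 tested genes found only in mitochondria 20 were called higher in each comparison and 2 lower, with a median log2 fold change of 0.97 in tdTomato-low cells and 1.06 in tdTomato-high cells. Of 46 of bacterial descent 24 were called higher and 2 lower in tdTomato-low cells, and 26 and 3 in tdTomato-high cells, with medians of 0.84 and 0.87. The shares called higher were 66.7% and 52.2% in tdTomato-low cells, where 22.6% of all tested genes were, and 66.7% and 56.5% in tdTomato-high cells, where 24.6% were. By the subunit in the name, 29 of 48 large and 15 of 29 small subunit genes were called higher in tdTomato-low cells (medians 0.90 and 0.83), and 30 and 16 in tdTomato-high cells (1.06 and 0.88). These are 60.4% and 51.7% in tdTomato-low cells and 62.5% and 55.2% in tdTomato-high cells. By place in the ribosome, 30 of 50 large and 14 of 26 small subunit genes were called higher in tdTomato-low cells (60.0% and 53.8%). In tdTomato-high cells 31 and 15 were (62.0% and 57.7%). The differences between classes or subunits were not tested. All 4 genes called below QSCs in both comparisons with TMM scaling were large subunit genes.

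The ratio of large to small subunit transcripts was compared next, because both subunits join in equal number in a working ribosome. Summed Mrpl counts over summed Mrps counts gave 1.90, 1.89 and 1.89 in tdTomato-low libraries, 1.93, 1.87 and 1.90 in tdTomato-high libraries and 2.09, 2.05 and 1.997 in QSCs libraries. The QSCs libraries thus had the higher ratio with no overlap. Mrpl23, Mrpl24, Mrpl48 and Mrpl52, chosen after their values were seen as the large subunit genes higher in QSCs, belong to the numerator, and leaving them out must lower the QSCs ratio most. This gives only their share of it. Without them the ratio was 1.74, 1.76 and 1.75 in tdTomato-low cells, 1.78, 1.74 and 1.76 in tdTomato-high cells and 1.62, 1.58 and 1.54 in QSCs. With Mrps18a and Mrps30 counted in the large subunit and Mrps36 left out, the mean ratio was 2.17, 2.18 and, in QSCs, 2.34. The ratio of the median TPM of the 2 subunits was 0.96–1.06, 1.04–1.08 and, in QSCs, 0.98–1.15, and these ranges overlapped. No test was run on these sums.

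**Figure D3:**
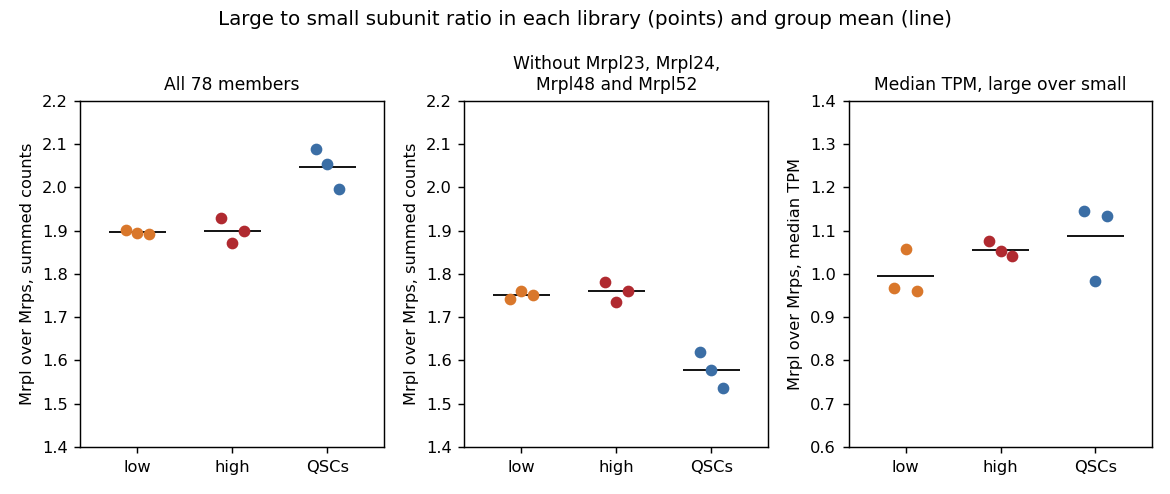
Ratio of large (Mrpl) to small (Mrps) subunit transcripts in the 3 libraries of MyoD-tdTomato low (orange), MyoD-tdTomato high (red) and QSCs (blue), with group means as lines, for summed counts of all members, summed counts without Mrpl23, Mrpl24, Mrpl48 and Mrpl52, and median TPM. Axes do not start at 0. QSCs are highest on the left (1.997–2.09), lowest in the middle (1.54–1.62) and overlap the cultured groups on the right.

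The sort on tdTomato separated no member past the threshold. Between the sorted populations 0 of 77 members were called in either direction, where 1.23% of all tested genes were called higher in tdTomato-low cells and 3.88% lower. By edgeR 1 member had an unadjusted p under 0.05 and the lowest adjusted p was 0.187 (Mrpl17), and DESeq2 called 0 members, with 0 at an unadjusted p under 0.05. Same-numbered libraries of these groups deviated together across genes (r of 0.44, 0.43 and 0.18), though the labels state no pairing. The fit above did not use these numbers. With the replicate block and only these 2 groups 14 members had an unadjusted p under 0.05 and the lowest adjusted p was 0.00134 (edgeR). In that fit 0 of 78 members were still called at the 1.5-fold limit. It called 6.25% of all its genes higher in tdTomato-low cells and 8.68% lower. The log2 fold changes without the block ran from −0.30 to 0.35 with a median of −0.05. The largest were in Mrpl20 (bL20) at 0.35 ± 0.19 (SE), with 46.1, 54.6 and 47.2 CPM in tdTomato-low cells and 36.8, 40.1 and 39.1 in tdTomato-high cells, and in Mrpl41 (mL41) at −0.30 ± 0.19, with 23.4, 24.2 and 25.5 against 32.1, 28.3 and 29.3 CPM. The libraries overlapped in 57 members, lay lower in tdTomato-low cells in 15 and higher in 5. The matching shares over all tested genes were not computed, so nothing is read from these counts. These same libraries differed in the myofibre markers, 6 of 9 of which were called lower in tdTomato-low cells, and in Myod1 (log2 fold change −1.04). Markers of other cells differed too. In tdTomato-low cells 5 of 8 tested endothelial and 3 of 8 tested myeloid markers were called higher. So were 2 of 6 tested fibroblast and 1 of 3 tested Schwann markers. Of 6 tested pericyte and smooth muscle markers 2 were called higher and 1 lower. The part of such cells in the member values was not tested.

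The size of these changes depended on how libraries were scaled. The fold changes above use TMM factors, under which 46.0% of all calls were higher in tdTomato-low cells than in QSCs and 48.2% in tdTomato-high cells. Scaled to library totals these shares were 66.3% and 62.2%, and on log2(TPM + 1) with limma 79.2% and 76.2%. The median log2 fold change of all tested genes then shifted to 0.38 and 0.29 with library totals and to 0.67 and 0.59 on TPM. On those scales 63 and 62 members were called higher with library totals, where 35.8% and 33.4% of all tested genes were. On TPM 71 members were called higher in each comparison, where 47.7% and 45.6% of all tested genes were. Relative to the median of all genes, however, the members' median differed little between scales, at 0.94 and 0.98 with TMM, 0.95 and 0.97 with library totals and 0.98 and 0.97 on TPM. The genes below QSCs behaved likewise. On TPM Mrpl23 had 117, 100.5 and 109 in tdTomato-low cells, 101, 101 and 90.9 in tdTomato-high cells and 123, 123 and 113 in QSCs, and Mrpl48, Mrpl23, Mrpl24 and Mrpl52 were at −0.45, −0.14, −0.03 and 0.04 in tdTomato-low cells by limma, none of them called. Relative to the median of all genes on that scale they were at −1.11, −0.80, −0.70 and −0.63. Whether their level fell or only failed to rise with the family therefore depends on the scale, but on both scales they lay below the members' median.

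**Figure D4:**
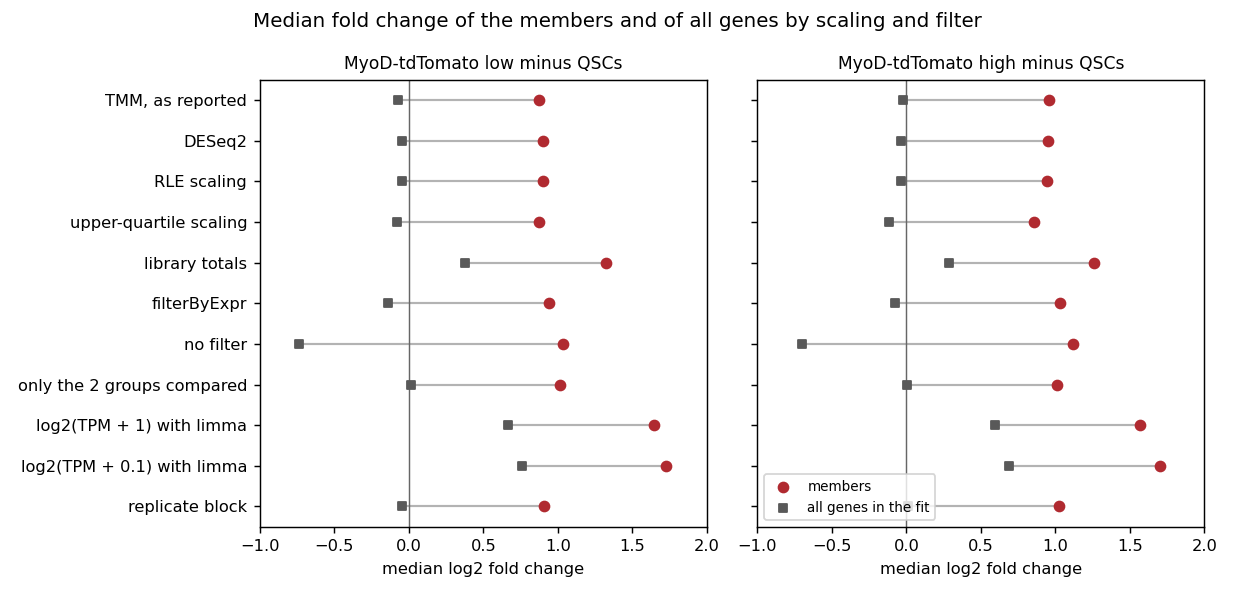
Median log2 fold change (x axis) of the members (red circles) and of all genes in the same fit (grey squares) under each scaling or filter (rows), for MyoD-tdTomato low minus QSCs on the left and MyoD-tdTomato high minus QSCs on the right. Both medians shift to the right with library totals and TPM, while the distance between them stays between 0.94 and 1.10 except without a filter on low counts (1.77 and 1.82).

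Other genes of mitochondrial gene expression were counted beside the background of all tested genes, 22.6% higher and 26.5% lower in tdTomato-low cells and 24.6% and 26.4% in tdTomato-high cells. Of 5 ribosome subunits whose names do not begin with Mrp, 3 were called higher and 0 lower in each comparison. These were Gadd45gip1 (mL64), Aurkaip1 (mS38) and Ptcd3 (mS39), at 1.54, 1.21 and 1.04 in tdTomato-low cells and 1.64, 1.31 and 1.31 in tdTomato-high cells, while Dap3 (mS29) and Chchd1 (mS37) were at 0.43 and 0.38 in tdTomato-low cells. Translation factors were called higher in 6 and lower in 1 of 13 in tdTomato-low cells, and in 7 and 1 in tdTomato-high cells (46.2% and 53.8% higher). The elongation factors Tufm and Tsfm and the recycling factor Gfm2 were at 1.81, 2.27 and 1.41 in tdTomato-low cells, and Mrrf, which acts with Gfm2 in recycling, was the one below, at −1.15 and −0.93. Tufm, the most abundant of them, averaged 191 CPM in tdTomato-low cells, 198 in tdTomato-high cells and 54.0 in QSCs.

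Of 24 tested assembly factors, 8 were called higher and 3 lower in tdTomato-low cells, and 7 and 2 in tdTomato-high cells, with medians of 0.55 and 0.42. The share called higher was 33.3% and 29.2%, against 22.6% and 24.6% of all tested genes. Grsf1, an RNA-binding protein of mitochondrial RNA granules, Noa1, a GTPase, and Trub2, a pseudouridine synthase, were at 1.05, 1.64 and 1.02 in tdTomato-low cells. Malsu1, which keeps immature large subunits from joining the small subunit, was at −1.18 and −1.20, and the rRNA methyltransferase Mrm3 at −0.95 and −0.89. Of 17 mitochondrial tRNA synthetases 6 were called higher in tdTomato-low cells and 7 in tdTomato-high cells and 1 lower in each (35.3% and 41.2% higher, against 22.6% and 24.6% of all genes), with Iars2, Tars2 and Vars2 at 1.09, 1.12 and 1.02 in tdTomato-low cells and Lars2 at −1.71. Import and chaperone genes were called higher in 9 of 13 in tdTomato-low cells and 8 in tdTomato-high cells and lower in 0, among them Hspa9, Hspd1, Tomm40 and Tomm70a (0.78, 1.22, 1.82 and 1.04 in tdTomato-low cells). Of the inner membrane insertion genes 2 of 3 were called higher in each, Letm1 and Oxa1l, the insertase for newly made proteins (1.63 and 0.69 in tdTomato-low cells).

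Genes for mitochondrial RNA and DNA differed from each other. Of 19 genes of mitochondrial transcription and mRNA stability 7 were called higher and 2 lower in each comparison (36.8% higher and 10.5% lower, against 22.6% and 24.6% of all genes higher and 26.5% and 26.4% lower). Polrmt, the mitochondrial RNA polymerase, was at 1.56 and 1.82, and Lrpprc, which stabilises mitochondrial mRNA, at 1.02 and 1.53, whereas the packaging factor Tfam was at −0.31 and −0.28 and not called. Of 10 mtDNA replication genes 1 was called higher (Twnk, 0.92 and 1.06) and 1 lower (Dguok, −1.68 and −1.74). The 13 mitochondrially encoded genes were all called lower in both comparisons, with medians of −2.27 and −1.998. Their counts per member count were 9.81–11.9 in tdTomato-low cells, 11.7–14.1 in tdTomato-high cells and 63.5–107 in QSCs. Cytosolic ribosomal proteins, taken by name pattern after the data had been seen, were called lower in 71 of 80 tested genes in tdTomato-low cells and 72 in tdTomato-high cells. Their summed TPM per member TPM was 25.2–27.4, 25.4–25.9 and, in QSCs, 74.5–97.3. Both ratios lay lower in every cultured library than in any QSCs library, and ratios within a library do not depend on library scaling.

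**Figure D5:**
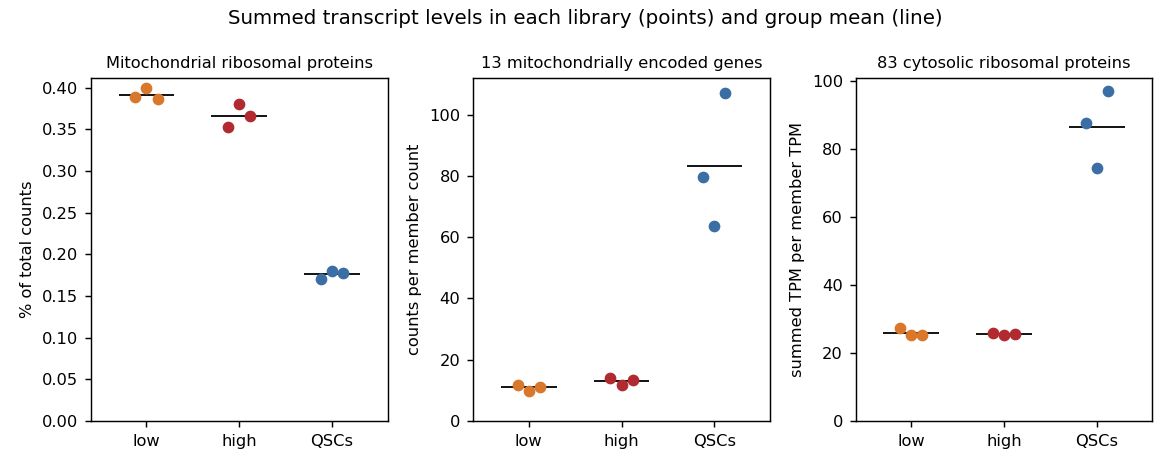
Share of member counts in all counts (%, left), counts of the 13 mitochondrially encoded genes per member count (middle) and summed TPM of 83 cytosolic ribosomal protein genes per member TPM (right) in the 3 libraries of MyoD-tdTomato low (orange), MyoD-tdTomato high (red) and QSCs (blue), with group means as lines and axes from 0. The member share is 0.352–0.3996% in the cultured libraries and 0.1703–0.1794% in QSCs, and both ratios are several-fold lower in the cultured libraries.

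Of 11 regulators known to act on mitochondrial genes, 2 were called higher and 3 lower in tdTomato-low cells (18.2% and 27.3%), and 3 and 4 in tdTomato-high cells (27.3% and 36.4%). Of all tested genes 22.6% were called higher and 26.5% lower in tdTomato-low cells, and 24.6% and 26.4% in tdTomato-high cells. Nrf1 (0.18 and 0.09), Yy1 (−0.05 and 0.01) and Gabpa (−0.31 and −0.06), whose letters were searched in the promoters above, were not called. Gabpb1, the partner of Gabpa, was lower at −1.66 and −1.79, and Gabpb2 was at −0.27 and −0.65, called lower in tdTomato-high cells. Esrra and the coactivator Ppargc1b were higher, at 1.64 and 1.60 in tdTomato-low cells and 1.83 and 2.08 in tdTomato-high cells. Ppargc1a, the coactivator best known in oxidative muscle, averaged 2.74 CPM in tdTomato-low cells, 11.998 in tdTomato-high cells and 2.91 in QSCs and was called higher in tdTomato-high cells only (2.08, adjusted p 0.0041 by edgeR), while its difference between the sorted populations was not called (−2.13). Pprc1, of the same coactivator family, was lower at −0.67 and −0.99. Myc, a regulator of ribosome production, averaged 65.7 CPM in tdTomato-low cells, 38.3 in tdTomato-high cells and 842 in QSCs (−3.70 and −4.48) and was the one regulator called between tdTomato-low and tdTomato-high cells (0.78). Mycn was at −1.28 and −1.86 and not called.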

How the data were processed

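RNA sequencing was analysed for 9 libraries, 3 per group, with groups and replicate numbers from the sample labels. The authors mapped and counted reads with CLC Genomics Workbench 20.0.3 and the genome build GRCm39 (paired-end reads, poly(A) libraries), and the deposited values used here are raw counts per gene and the authors' TPM. Annotation version and strand setting were not given in the sources used here. Not used here were 18 further columns of single samples (RPKM and CPM) and 24 that hold the authors' own comparisons (fold changes and p-values).

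Members were matched by name. Members and gene lists were chosen with earlier results of these data known. Counts of 12614 genes with at least 1 count in every library were fitted with edgeR 4.0.16 in R 4.3.3 (TMM, robust quasi-likelihood, 1 coefficient per group, no replicate block), with Benjamini-Hochberg adjustment over all genes tested. Calls needed an adjusted p below 0.01 with a change beyond 1.5-fold. CPM values are TMM-scaled. TPM values were tested with limma 3.58.1 on log2(TPM + 1) and log2(TPM + 0.1), a scale that understates changes of low genes. Alternatives were DESeq2 1.42.0, RLE, upper-quartile and total scaling, other filters, other thresholds, fits of only the compared groups, a replicate block, and leaving out each library. The fit was tested on simulated data. No pair of libraries agreed within sampling noise.

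Same-numbered tdTomato-low and tdTomato-high libraries deviated together (r of 0.44, 0.43 and 0.18 across genes, each over 0.1). These numbers were therefore taken as possible pairs of those groups, which the labels do not state. QSCs libraries did not deviate together with those of the same number. Under the rule for named genes, the text gives the 6 members called higher and the 6 called lower with the largest change per comparison, those called against the majority, the 6 highest and 3 lowest by TPM, the 6 with the smallest change, Mrps18a, Mrps18b, Mrps18c, Mrps30, Mrps36, members sharing reads with a near copy, up to 4 called genes of highest CPM per list, and all regulators. Mrps11, Mrpl46, Mrpl22, Mrpl20, Mrpl33, Mrpl41, Mrpl44, Mrps14 and list genes beyond those 4 were chosen after their values were seen.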

Additional observations from a re-analysis of the deposited data

How the results depend on the processing

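Member counts called higher ranged from 43 to 52 in both comparisons with QSCs under DESeq2, RLE and upper-quartile scaling, other filters, an adjusted p under 0.05 with the same fold change, the compared groups only and the replicate block. Of all genes in these fits 16.7–28.1% were called higher. The replicate block gave 44 higher and 4 lower in tdTomato-low cells (22.5% and 25.4% of all genes) and 46 and 4 in tdTomato-high cells (24.7% and 25.2%). It called 0 members between tdTomato-low and tdTomato-high cells (1.17% of all genes higher and 4.02% lower). At an adjusted p under 0.05 with no fold change 55 and 58 were called higher, where 30.6% and 32.6% of all tested genes were. With library totals 1 and 2 members were called lower in tdTomato-low and tdTomato-high cells, where 18.2% and 20.3% of all tested genes were. On log2(TPM + 1) and on log2(TPM + 0.1) 71 were called higher and 0 lower in each. Of all tested genes 47.7% and 45.6% were called higher on the former and 47.1% and 45.2% on the latter. Leaving out 1 library gave 38–49 higher and 4–5 lower in tdTomato-low cells and 41–48 and 4–5 in tdTomato-high cells. Of all genes in these fits 19.4–24.2% were called higher and 22.1–27.7% lower in tdTomato-low cells. In tdTomato-high cells these shares were 21.7–26.5% and 21.8–27.4%. In the block fit Mrps28 was not called (adjusted p 0.0139 by edgeR), and no other named member changed its call.

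The mean large to small ratio in tdTomato-low cells, tdTomato-high cells and QSCs was 1.95, 1.93 and 2.05 from summed TPM, 2.17, 2.18 and 2.34 by place in the ribosome, 0.99, 1.06 and 1.09 from median TPM and 1.75, 1.76 and 1.58 without the large subunit members called lower. From members counted in every library it was 1.88, 1.88 and 2.04.

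Members near 0 changed sign, and none of these values decides a call on the count scale. Mrpl54 was at 0.34 and 0.32 with library totals, 0.73 and 0.72 on log2(TPM + 1) and 0.73 and 0.73 on log2(TPM + 0.1) in tdTomato-low and tdTomato-high cells, called higher on TPM. It was at 0.0203 and 0.14 without a filter and 0.0025 and 0.0443 with only the compared groups, and in tdTomato-high cells at 0.0526 with filterByExpr and 0.0226 with the replicate block. Without 1 library it ranged from -0.37 to 0.18 in tdTomato-low cells and from -0.25 to 0.30 in tdTomato-high cells. Mrpl52 in tdTomato-low cells was at 0.0354 and 0.0356 on log2(TPM + 1) and log2(TPM + 0.1). Mrpl30 in tdTomato-high cells was at -0.0007 with upper-quartile scaling. Without 1 library Mrpl50, Mrpl30 and Mrps10 in tdTomato-low cells ranged from -0.0258 to 0.16, from -0.0457 to 0.0673 and from -0.0174 to 0.39.

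Between tdTomato-low and tdTomato-high cells no alternative called a member. Fitting only these 2 groups gave 11 members with an unadjusted p under 0.05 and a lowest adjusted p of 0.0173, and 14 and 0.00134 with the replicate block (edgeR). Of all genes these fits called 2.51% higher and 5.09% lower, and 6.25% and 8.68% with the replicate block.

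QSCs libraries limit precision. They are the shallowest, vary most between libraries and carry markers of other cells, and the cause of the dependence on scaling was not tested. Strand, pseudogenes and overlapping genes limit single members. Of the 43 tested members with neither an exon overlap nor a named pseudogene, 23 were called higher and 1 lower in tdTomato-low cells, and 25 and 2 in tdTomato-high cells. Of all tested genes 22.6% were called higher and 26.5% lower in tdTomato-low cells, and 24.6% and 26.4% in tdTomato-high cells. Whether these members differ from those with an overlap or pseudogene was not tested.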
